A study of Mus musculus and Rattus norvegicus with 6 samples.

Results

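The enzymes that build cholesterol were described in the livers of leptin-deficient mice and rats. The set comprised 9 genes of mevalonate and sterol synthesis: Hmgcs1, Mvd, Idi1, Fdps, Fdft1, Sqle, Lss, Cyp51 and Dhcr7. All probe sets annotated to these symbols were taken, which gave 23 probe sets for all 9 genes on the mouse arrays and 12 probe sets for 8 genes on the rat arrays, of 18193 and 14217 genes with a single symbol. Rat Hmgcs1 was not analysed here. The samples were liver RNA of males aged 20 weeks, taken 6 hours after an intraperitoneal injection. The mice were wild-type (WT) given saline, Lepob/Lepob given saline and Lepob/Lepob given recombinant murine leptin (1 microg/mg, as the labels write the dose), on a C57/BL6J background. The rats were WT given saline, Lepmkyo/Lepmkyo given saline and Lepmkyo/Lepmkyo given the same leptin, on an F344/NSlc background. The labels spell the rat genotype in several ways, and Lepmkyo was taken from the descriptions. Both mutations lie in the germline leptin gene and so act on the whole animal, and no WT array with leptin was analysed here. The WT animals were littermates of the mutants. Each group held 1 array, and the labels do not say how many livers went into it. No test was therefore possible, and every "higher" or "lower" sets one array beside another.

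Cholesterol synthesis begins with acetyl groups, which are joined into mevalonate and turned into isoprenoid units. Farnesyl diphosphate, built from these units, is either made into squalene or diverted to other isoprenoids. Squalene is closed into lanosterol, and lanosterol is trimmed and reduced to cholesterol. The liver is a main site of this synthesis. Most genes of the pathway are known targets of SREBP-2, a transcription factor held inactive in the endoplasmic reticulum when sterols are plentiful. In the saline-injected mutant mouse the signals of all 9 enzymes were below those of the WT array, where 52.5% of all genes were, although Fdft1 turned above WT, at a log2 ratio of 0.21, with the arrays scaled to one median. Of the 9, 6 were lower by at least 2-fold, where 3.71% of all genes were. In the saline-injected mutant rat, 6 of 8 were above WT, where 55.2% of all genes were, 7 with the arrays scaled to one median (Cyp51 then at 0.02), and none was 2-fold apart. After leptin, 0 enzymes differed by 1.5-fold from the saline-injected mutant in either species, a size that 2.18% of mouse genes reached upward and 2.21% downward, and 2.1% and 2.59% of rat genes.

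The RefSeq promoter table of assembly GRCm38.p6 held 8 windows for 6 of the 9 mouse genes: Hmgcs1, Mvd, Idi1, Lss, Cyp51 and Dhcr7. Each window runs from 250 bases before a start site to 50 bases after it. The windows of 4 genes are shown because these genes span the pathway and include 3 with large genotype ratios, while Hmgcs1 has a small one. Capitals mark every match, on either strand, to TCACNCCA, the core of a sterol regulatory element that SREBP binds, or to CCAAT, the box bound by NF-Y, which reads ATTGG on the other strand. The windows lie at chr13:119690101-119690400 on the plus strand (Hmgcs1), chr13:8885356-8885655 on the plus strand (Idi1), chr5:4104648-4104947 on the minus strand (Cyp51) and chr7:143829964-143830263 on the plus strand (Dhcr7, one of 3 start sites).
Hmgcs1: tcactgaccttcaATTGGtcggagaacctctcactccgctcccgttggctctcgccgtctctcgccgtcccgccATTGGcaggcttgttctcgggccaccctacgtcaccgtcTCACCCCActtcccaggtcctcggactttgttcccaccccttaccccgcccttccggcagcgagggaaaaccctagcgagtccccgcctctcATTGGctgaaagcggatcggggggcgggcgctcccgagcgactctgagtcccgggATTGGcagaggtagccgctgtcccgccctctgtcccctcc
Idi1: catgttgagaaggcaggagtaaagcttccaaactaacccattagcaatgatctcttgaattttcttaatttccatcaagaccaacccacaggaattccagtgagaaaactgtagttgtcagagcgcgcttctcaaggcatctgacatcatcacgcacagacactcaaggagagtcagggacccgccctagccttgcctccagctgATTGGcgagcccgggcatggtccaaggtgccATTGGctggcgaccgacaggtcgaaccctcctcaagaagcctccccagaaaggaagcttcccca
Cyp51: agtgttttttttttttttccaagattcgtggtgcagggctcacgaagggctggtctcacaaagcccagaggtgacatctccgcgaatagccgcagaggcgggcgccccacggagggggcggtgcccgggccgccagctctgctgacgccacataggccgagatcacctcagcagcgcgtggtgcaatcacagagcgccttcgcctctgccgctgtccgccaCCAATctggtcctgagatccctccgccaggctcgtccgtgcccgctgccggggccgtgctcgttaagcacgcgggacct
Dhcr7: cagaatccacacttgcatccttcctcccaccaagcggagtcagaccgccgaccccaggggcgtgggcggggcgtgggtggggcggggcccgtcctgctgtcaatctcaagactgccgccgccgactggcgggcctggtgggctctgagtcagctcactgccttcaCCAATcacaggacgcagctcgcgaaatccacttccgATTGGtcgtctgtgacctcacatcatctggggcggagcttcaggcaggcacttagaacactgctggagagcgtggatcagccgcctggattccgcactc

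TCACNCCA occurred in the Hmgcs1 window, with its first base 137 bases before the start site, and in none of the other 7 windows of the enzymes. It occurred in 4.36% of the 32851 promoters in the table. CCAAT occurred in at least 1 window of all 6 genes and in 6 of the 8 windows, against 37.4% of all promoters. A CCAAT match started within the 100 bases before the start site in 6 of the 8 windows, which covered all 6 genes. This stretch, chosen after the matches were seen, held a match in 19.3% of all promoters. GGGCGG, the box bound by SP1, occurred in 7 of the 8 windows and in 35.7% of all promoters. Both strands were searched for each motif. A TCACNCCA match can share its last bases with CCAAT, which it did not in the Hmgcs1 window, and a match is a description of letters and not of a bound site.

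In mice the largest genotype ratios belonged to enzymes of the isoprenoid steps and of the late sterol steps. The signal of Fdps, which condenses isoprenoid units to farnesyl diphosphate, was 7931.6 on the WT saline array, 1729.8 on the mutant saline array and 2360.7 on the mutant leptin array. WT was the high array and the 2 mutant arrays lay closer to each other than to WT. The saline-injected mutant signal was 4.59-fold lower than WT, and the leptin signal was 1.36-fold above the saline one. Idi1, the isomerase that supplies one of the units joined by Fdps, had signals of 4825.2, 1278.1 and 1434.4 in the same order. Its mutant saline signal was 3.78-fold lower, and its other probe set gave 2415.3, 714.7 and 861.0. The order of the arrays was the same on both probe sets of Idi1, with WT highest and mutant saline lowest.

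The ratios of Hmgcs1 and Mvd, which act before Idi1, were smaller. Mevalonate kinase (Mvk) and phosphomevalonate kinase (Pmvk) act between them but are outside the 9. They were 2.62-fold and 1.92-fold lower in the saline-injected mutant. Hmgcs1, the cytosolic synthase that makes HMG-CoA, had signals of 10900.9 (WT saline), 8556.3 (mutant saline) and 8652.6 (mutant leptin). The log2 ratio of mutant saline to WT was -0.35, and the other probe sets of Hmgcs1 above the floor gave -0.33, -0.50 and -0.61. All 4 were thus below WT and none reached 2-fold. Mvd, which decarboxylates the phosphorylated mevalonate, had signals of 393.7, 222.0 and 172.7, a 1.77-fold lower value in the saline-injected mutant. It was the only 1 of the 9 mouse enzymes whose leptin array was lower than the mutant saline array on the brightest probe set.

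The steps from farnesyl diphosphate to lanosterol were uneven. Sqle, the squalene epoxidase and a controlled oxygen-dependent step, had signals of 698.7 (WT saline), 225.0 (mutant saline) and 299.0 (mutant leptin), 3.11-fold lower in the saline-injected mutant than in WT. Lss, the cyclase that makes lanosterol, had signals of 753.6, 361.0 and 420.9 on its brightest probe set, which is 2.09-fold lower. The second probe set of Lss above the floor gave 348.9, 266.0 and 255.2, a log2 ratio of only -0.39, so the 2-fold difference held on 1 of the 2. Fdft1, the squalene synthase, had signals of 3156.4, 3051.6 and 3197.3 on its brightest probe set, where the 3 arrays could hardly be told apart. Its probe sets disagreed: the other one above the floor gave 1942.5, 1196.8 and 1396.8, a log2 ratio of -0.70. The brightest belongs to a class of probe sets that can bind several transcripts, and the other does not.

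Both enzymes beyond lanosterol were lower in the mutant mouse. Cyp51, the lanosterol demethylase, had signals of 2001.7 (WT saline), 576.8 (mutant saline) and 621.6 (mutant leptin) on its brightest probe set, 3.47-fold lower in the saline-injected mutant. A second probe set gave 804.1, 189.7 and 260.8, with a log2 ratio of -2.08. Dhcr7, the reductase of the last step of one route to cholesterol, had signals of 1406.2, 425.2 and 534.6 and was 3.31-fold lower. For both genes the 2 mutant arrays were closer to each other than to the WT array, which lay above them.

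**Figure D1:**
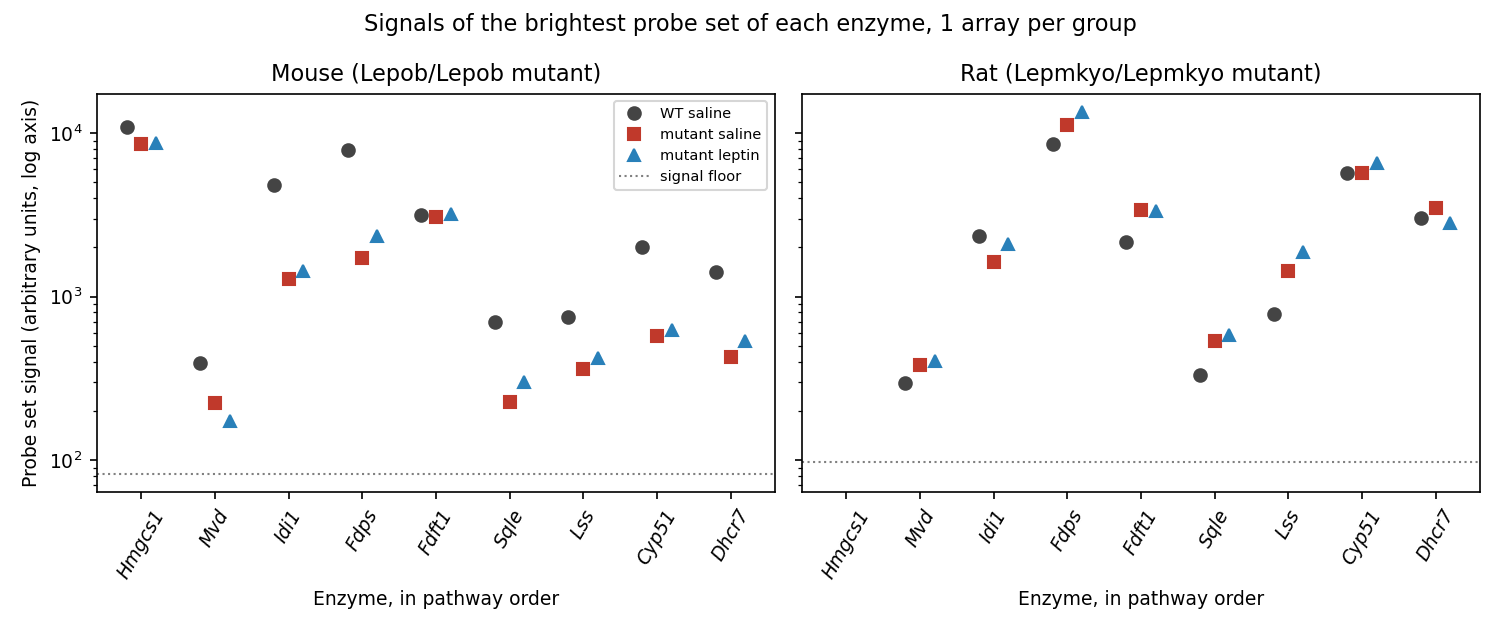
Signal (arbitrary units, log axis) of the brightest probe set of each enzyme on the WT saline (circles), mutant saline (squares) and mutant leptin (triangles) array, with mice on the left, rats on the right and the signal floor as a dotted line. In mice the WT array is highest for 8 of 9 enzymes, the exception being Fdft1, and in rats it is lowest for 5 of 8. The share of all genes with these orders was not counted. Each point is 1 array, and signals of different enzymes cannot be set against each other.

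Of the 9 mouse enzymes, 6 were at least 2-fold lower and 0 at least 2-fold higher in the saline-injected mutant. Among the 11956 genes measured, 3.71% were 2-fold lower and 4.46% 2-fold higher. These 443 lower and 533 higher genes became 235 and 962 with the arrays scaled to one median, and 352 and 663 with quantile normalization. A gene counted as measured when its brightest probe set reached the floor, the median of all signals of the platform (82.7 in mice, 97.0 in rats), on at least 1 of the 2 arrays. All 9 mouse and all 8 rat enzymes reached it on all 3 arrays of their species. The median log2 ratio of the 9 was -1.63, against -0.03 over all genes, and the ratios ran from -2.20 to -0.05. Fdps lay 46th from the lowest of the 11956 ratios, Idi1 66th, Cyp51 79th, Dhcr7 83rd and Sqle 98th. Of the 16 probe sets of the enzymes that were above the floor on both arrays, all 16 were below 0 and 8 were at least 2-fold lower. The spread between these probe sets of the same enzyme was 0.28 (SD of log2 ratios, 5 enzymes with several), and over all genes it was 0.43. This spread compares probe sets on the same 2 arrays and is not a pure measure of technical error. It can include differences between the transcripts that the probe sets bind, and it leaves out error shared by a whole array. How much animals of one group differ cannot be read from it. In these bulk samples fewer cells of a type and less RNA per cell cannot be told apart. Scaling the arrays to one median moved the median of all genes to 0.22 and that of the 9 enzymes to -1.38, with Lss then at -0.81 and 5 enzymes 2-fold lower. With the floor at the 75th percentile the median of the 9 was -0.97, because signals of the dimmer enzymes were then raised to the floor, and 4 were 2-fold lower.

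**Figure D2:**
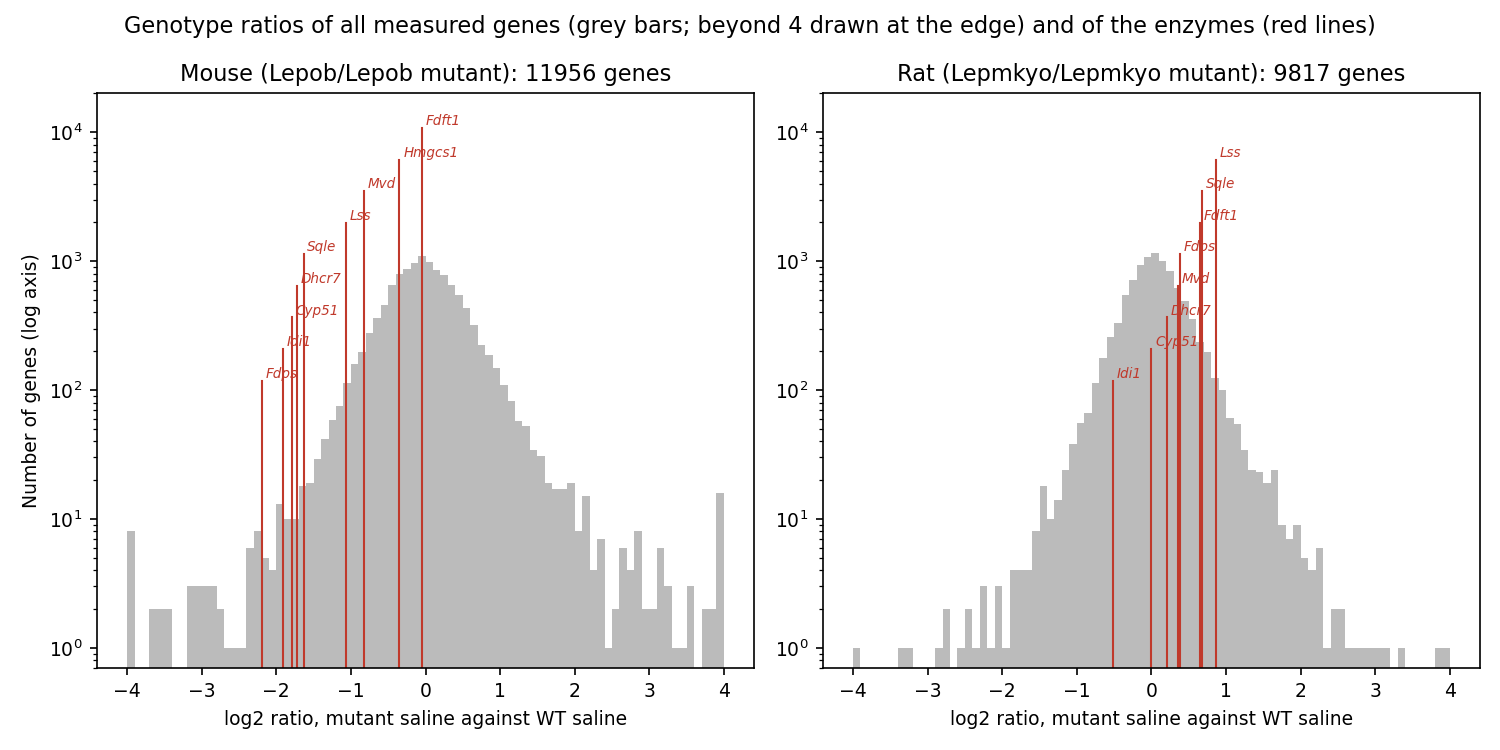
Number of genes (log axis) by log2 ratio of mutant saline to WT saline in mice (left, 11956 genes) and rats (right, 9817 genes), with each enzyme as a red line whose height has no meaning. In mice 5 of the 9 enzymes sit in the lower tail at -1.63 or less, whereas in rats the enzymes sit between -0.51 and 0.87.

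The rat enzymes were spread on both sides of WT, with more above it. Lss had signals of 784.2 (WT saline), 1432.6 (mutant saline) and 1885.6 (mutant leptin), the largest genotype ratio among the rat enzymes at 1.83-fold higher. Sqle had signals of 332.6, 532.8 and 582.7 and was 1.60-fold higher. Fdft1 had signals of 2148.6, 3370.6 and 3337.2 and was 1.57-fold higher, while its second probe set gave 797.3, 863.0 and 812.6. In these 3 genes both mutant arrays lay above WT, and they make up the stretch from farnesyl diphosphate to lanosterol.

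The other rat enzymes differed less. Fdps had signals of 8613.7 (WT saline), 11227.1 (mutant saline) and 13526.3 (mutant leptin), 1.30-fold higher in the saline-injected mutant. Mvd had signals of 297.5, 380.5 and 401.6 and was 1.28-fold higher, and Dhcr7 had signals of 3021.8, 3489.7 and 2815.8. For Fdps and Mvd both mutant arrays were above WT, and for Dhcr7 the leptin array was the lowest of the 3. Cyp51 had signals of 5714.6, 5704.9 and 6572.5 on its brightest probe set, and its second probe set had a log2 genotype ratio of -0.35. Idi1 was the only enzyme below WT by more than a trace on its brightest probe set, with signals of 2333.2, 1636.7 and 2085.2, but its second probe set gave 594.9, 700.9 and 654.8, so the 2 probe sets had opposite directions.

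Of the 8 rat enzymes, 0 were 2-fold apart in either direction, where 2.99% of 9817 genes were 2-fold higher and 1.45% 2-fold lower. At 1.5-fold, 3 of 8 were higher and 0 lower, against 10.2% and 5.92% of all genes. The median log2 ratio of the 8 was 0.37, against 0.04 over all genes, with a range from -0.51 to 0.87. Of 11 probe sets above the floor on both arrays, 8 were above 0 and 3 below. The probe set spread of all rat genes was 0.43. On the brightest probe sets the ratios of Lss, Sqle, Fdft1 and Idi1 exceeded it and those of the other 4 did not. The second probe sets of Fdft1, at 0.11, and of Idi1, at 0.24, did not exceed it. The share of all genes beyond this spread was not counted.

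**Figure D3:**
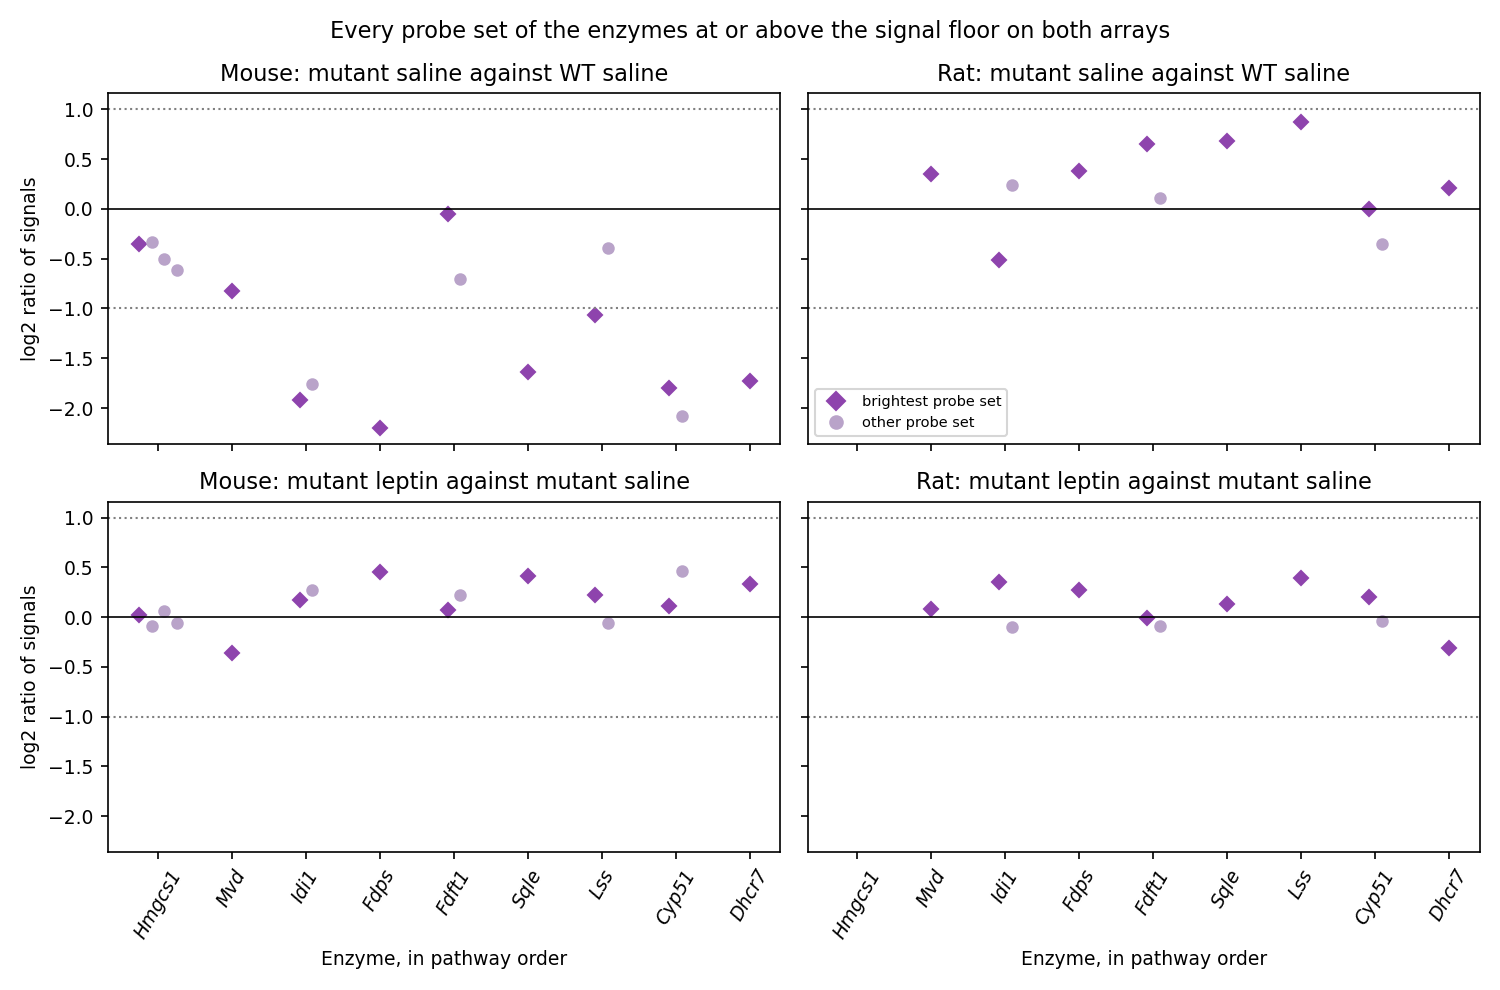
Log2 ratio of every probe set of the enzymes that was above the floor on both arrays compared, for the genotype comparison (top) and the leptin comparison (bottom), in mice (left) and rats (right), with diamonds for the brightest probe set and circles for the others. Dotted lines mark 2-fold. All 16 mouse probe sets lie below 0 in the genotype comparison on the deposited scale, where the brightest of Fdft1 turns above 0 with the arrays scaled to one median, and no probe set reaches 2-fold in the leptin comparison.

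The 2 species were set side by side by identical symbol in the genotype comparison, which uses different arrays in each. The log2 ratio was lower in mice than in rats for all 8 shared enzymes, and by at least 1 for 7 of them, with Fdft1 at -0.70 as the exception. Of the 8303 genes measured in both species, 53.1% were lower in mice and 5.83% by at least 1. The largest gap was that of Fdps, at -2.58, followed by Sqle at -2.31, Dhcr7 at -1.93, Lss at -1.93 and Cyp51 at -1.79. For Idi1 it was -1.41 and for Mvd -1.18. The median gap over the 8 was -1.86, against -0.04 over all shared genes. Mice below WT together with rats above WT was seen in 6 of 8 enzymes and in 23.9% of the shared genes. Species, strain, mutation and array platform differ together here and cannot be told apart, and with 1 array a group the difference between species was not tested.

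The leptin comparison set the leptin-injected mutant array beside the saline-injected one, both 6 hours after injection. In mice the leptin-injected mutant was above the saline-injected one for 8 of 9 enzymes, or 7 with the arrays scaled to one median (Hmgcs1 then at -0.02), with 49.4% of 11536 genes above 0, but 0 enzymes were 2-fold higher or lower, where 0.182% and 0.243% of all genes were. At 1.5-fold the enzymes again numbered 0 in both directions, against 2.18% and 2.21% of genes. On the brightest probe sets Fdps had the largest ratio, 1.36-fold higher, then Sqle at 1.33-fold and Dhcr7 at 1.26-fold, and Mvd was 1.29-fold lower. There these 4 exceeded the probe set spread of 0.24 on the log2 scale and the other 5 did not. The second probe sets of Cyp51, at 0.46, and of Idi1, at 0.27, exceeded it too. The share of all genes beyond this spread was not counted. Over probe sets, 12 of 16 were above 0, and for Hmgcs1 and Lss the probe sets fell on both sides of 0. The median was 0.17, against -0.00 over all genes. The mutant saline array enters both this comparison and the genotype one, so any deviation of that array alone moves their ratios in opposite directions.

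Compared with WT, the leptin-injected mutant mouse still had 6 of 9 enzymes at least 2-fold lower, where 3.46% of 11958 genes were. The 414 genes lower and 476 higher became 235 and 767 with the arrays scaled to one median, which left 5 enzymes 2-fold lower. Mvd, at 2.28-fold lower, was among them and Lss, at 1.79-fold lower, was not, the reverse of the saline comparison. The enzymes stood at a median of 32.2% of the WT signal in the saline-injected mutant, from 21.8% for Fdps to 96.7% for Fdft1. In the leptin-injected mutant the median was 42.8%, from 29.7% for Idi1 to 101% for Fdft1. The mutant arrays were thus closer to each other than to WT for 8 of the 9 enzymes, Fdft1 being the exception. Over all mouse genes, too, the ratios spread less between the mutant arrays than for mutant saline against WT. With the extremes at each end left out, they ran from -0.57 to 0.56 and from -1.13 to 1.27. The share of all genes with closer mutant arrays was not counted.

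In rats 6 of 8 enzymes were higher after leptin than after saline and 2 lower, or 7 and 1 with the arrays scaled to one median (Fdft1 then at 0.05), against 52% of 9705 genes above 0. Again 0 were 2-fold or 1.5-fold apart, where 0.237% of genes were 2-fold higher, 0.278% 2-fold lower, 2.1% 1.5-fold higher and 2.59% 1.5-fold lower. The 23 genes 2-fold higher and 27 lower became 29 and 20 with the arrays scaled to one median. Lss was 1.32-fold higher, Idi1 1.27-fold higher and Dhcr7 1.24-fold lower. The second probe sets of Idi1, Fdft1 and Cyp51 were slightly lower, at log2 ratios of -0.10, -0.09 and -0.04. Over the probe sets above the floor on both arrays, 6 of 11 were above 0 and 5 below, with a median of 0.08. The median of the 8 was 0.17, against 0.01 over all genes. Set against WT, the leptin-injected mutant rat had 1 of 8 enzymes 2-fold higher, Lss at 2.40-fold, where 2.83% of 9742 genes were, and 4 of 8 at least 1.5-fold higher, where 10.3% were. As the median over its probe sets Lss was under 2-fold, with a log2 ratio of 0.83 in place of 1.27. Its dimmer probe set, at 53.0, 67.1 and 126.7, passed the floor only on the leptin array.

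The remaining enzymes of the pathway came from a fixed list, of which 9 genes were measured in mice and 10 in rats. In the saline-injected mutant mouse 4 of these 9 were at least 2-fold lower, 0 higher and 8 below 0, with a median of -0.94. The sterol methyl oxidase Msmo1 was 2.87-fold lower, mevalonate kinase (Mvk) 2.62-fold, the sterol dehydrogenase Nsdhl 2.21-fold and the sterol reductase Tm7sf2 2.04-fold lower. The exception was Hsd17b7, at a log2 ratio of 0.12 on its brightest probe set, while its 2 others above the floor gave -0.81 and -0.60. In the rat 0 of 10 were 2-fold apart and the median was 0.03, with Pmvk, the phosphomevalonate kinase, at 0.84 and Tm7sf2 at -0.86. Lbr, a second sterol reductase, was at 0.26 and Acat2, which joins acetyl groups, at 0.24. In the leptin comparison 0 of these genes were 1.5-fold apart in either species.

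Genes that use farnesyl diphosphate for other isoprenoids lay near 0 in the mouse. Of 9 measured, 0 were 2-fold apart and the median was 0.15. Coq2, an enzyme of ubiquinone synthesis, was at a log2 ratio of 0.64 and Fnta, a farnesyltransferase subunit, at 0.42. In rats Coq2 was at -0.47, and the median of the 9 was -0.11.

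Sterol sensing and uptake genes were mixed in mice, where 2 of 16 were at least 2-fold lower and 1 was higher, around a median of 0.03. Insig1, which retains SREBP in the endoplasmic reticulum and is itself a target of SREBP, had signals of 5130.0 (WT saline), 2082.8 (mutant saline) and 2464.3 (mutant leptin). It was thus lower in both mutant arrays, as most of the enzymes were. The sterol carrier Stard4 was 2.03-fold lower, with its other probe sets at -2.27 and -1.54. Mylip, a ligase that degrades the LDL receptor and a target of the oxysterol receptor LXR, was 2.56-fold higher. Srebf2, the gene of SREBP-2, had signals of 246.0, 190.5 and 241.0, and its dimmer probe set gave 223.9, 81.4 and 169.3, where the mutant saline signal was under the floor. Npc2, a lysosomal sterol carrier, was at 0.76.

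In rats 0 of 14 of these genes were 2-fold apart between the saline-injected mutant and WT. Insig1 had signals of 9564.9 (WT saline), 14251.0 (mutant saline) and 7115.9 (mutant leptin). It was the highest after saline in the mutant and 2-fold lower after leptin, the only 1 of the 14 to reach that size in the leptin comparison. Of the rat enzymes Dhcr7 had the same order of arrays, and Fdft1 was also highest in the saline-injected mutant on both probe sets, while the other 6 were higher after leptin on their brightest probe sets. Tmem97, a sterol-regulated membrane protein, was at a log2 ratio of 0.86 in the saline-injected mutant rat, and Srebf2 was at -0.16.

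Of the genes for sterol export, storage and bile acid entry in mice, 2 of 12 were at least 2-fold lower and 1 was higher, and the median was -0.05. Cyp7b1, an oxysterol hydroxylase, was at a log2 ratio of -5.43, Cyp8b1, which directs bile acids to cholic acid, at -1.07, and Cyp27a1, the sterol 27-hydroxylase, at -0.84. Cyp7a1, the rate-limiting enzyme of bile acid synthesis, was at 1.22 on its brightest probe set and -0.03 on the other. In rats 2 of 11 were lower and 0 higher: Cyp8b1 at -1.26 and the sterol exporter Abcg5, at least 3.63-fold lower. Cyp7a1 had rat signals of 3411.3 (WT saline), 3419.0 (mutant saline) and 7318.2 (mutant leptin), with the leptin array highest.

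Fatty acid synthesis, driven largely by the related factor SREBP-1c, was measured with 12 genes in mice and 10 in rats. In mice 2 of 12 were 2-fold higher and 0 lower, around a median of 0.12, beside -1.63 for the sterol enzymes. Scd2, a desaturase, was at 1.39 and the lipogenic regulator Thrsp at 1.23, whereas the acetyl-CoA carboxylase Acacb was at -0.92 and the citrate lyase Acly at -0.90. The count of 0 lower rests on the brightest probe set of Acly, whose 2 others above the floor on both arrays gave -1.06 and -1.59. In rats 6 of 10 were 2-fold higher and 0 lower, around a median of 1.24, beside 0.37 for the sterol enzymes. The fatty acid synthase Fasn was 4.81-fold higher there, the carboxylase Acaca 4.43-fold, the elongase Elovl6 3.94-fold and Acly 2.87-fold. A second, dim probe set of rat Acaca gave a log2 ratio of -0.11. In both species the sterol enzymes thus had the lower median, with no test of that difference.

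**Figure D4:**
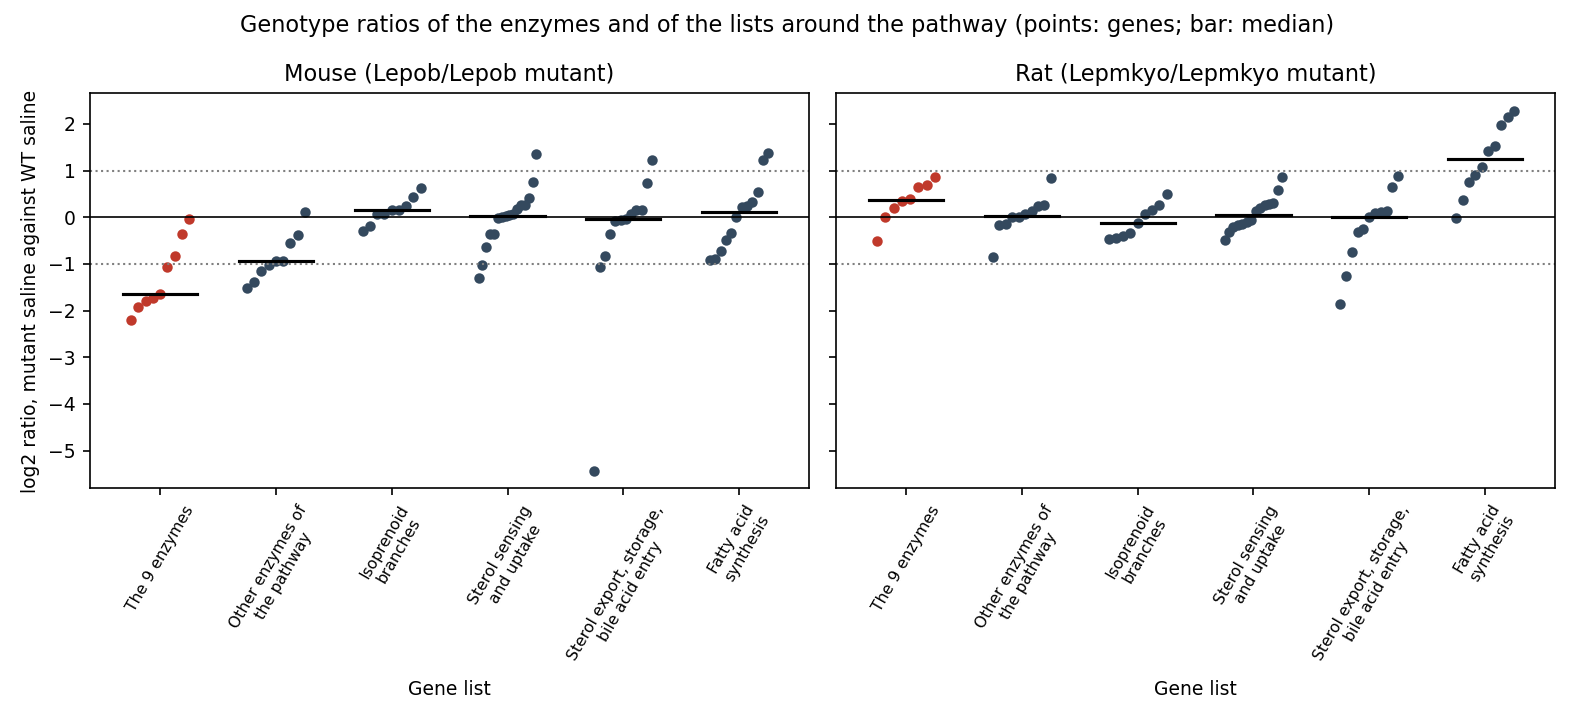
Log2 ratio of mutant saline to WT saline for each measured gene (points) of the 9 enzymes (red) and of 5 other lists, in mice (left) and rats (right), with the median of each list as a bar and dotted lines at 2-fold. The enzymes have the lowest median of the 6 lists in mice, at -1.63, and in rats fatty acid synthesis has the highest, at 1.24.

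The genes most like the enzymes were sought among 7401 genes above the floor on all 6 arrays under the same symbol. Likeness was the distance over 4 log2 ratios, genotype and leptin in each species, to the median of the 8 shared enzymes. The 5 nearest others were Pdia6, a disulfide isomerase of the endoplasmic reticulum, at 0.25, the claudin Cldn14 at 0.39, Msmo1 at 0.39, the prostaglandin transporter Slco2a1 at 0.42 and Dpy19l3 at 0.44. The enzymes themselves enter that median and are drawn toward it, so their places are a description only: Sqle was 2nd of the 7401 genes, Cyp51 5th, Dhcr7 13th, Fdps 29th, Lss 115th, Idi1 181st, Mvd 271st and Fdft1 2765th.

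Markers of hepatocytes were above the floor on the arrays of both species. In the saline-injected mutant mouse 0 of 11 were 2-fold apart, their median was -0.31, and their summed signal was 423911 in WT, 346634 after saline and 358041 after leptin. Of 12 macrophage and Kupffer cell markers in mice 3 were 2-fold higher and 1 lower, around 0.36, with summed signals of 21507, 30862 and 28103. Of 8 stellate cell markers 0 were 2-fold apart in mice, with sums of 6405, 9553 and 9888, and 3 were higher in rats, with sums of 3240, 8823 and 8826. Endothelial markers in mice were 2-fold higher for 1 of 8, and in rats 0 of 6 were 2-fold apart by genotype while all 6 were above 0 after leptin, with a median of 0.29. Neutrophil markers were 2-fold higher for 2 of 6 in the saline-injected mutant mouse, S100a8 and S100a9, and 3 were below 0. After leptin 3 of the 4 measured were 2-fold higher, and Csf3r was lower, at -0.56. The sum of the neutrophil markers went from 702 in WT to 877 and 1938, mostly through S100a8 and S100a9. Elane was under the floor on all 3 arrays, and Mpo and Ltf were on both mutant arrays. Red blood cell markers summed to 2791, 1274 and 1176 in mice, nearly all of it from Alas2. Mouse Hba-a1 and Slc4a1 were under the floor on all 3 arrays. In rats these markers summed to 8639, 19199 and 20153, mostly from Hbb. Rat Alas2 was higher in the saline-injected mutant, at 0.86, and Slc4a1 lower, at -0.39. In rats the hepatocyte markers summed to 349831, 320854 and 350773, with 1 of 11 lower. Of the adipocyte markers in mice, Adipoq, Retn and Lep were under the floor on all 3 arrays, and the 2 markers measured were higher, the 5 summing to 1245, 6461 and 6051. Clock genes also differed in the mutant mouse: 7 of 9 genes of the Per and Dbp phase were 2-fold higher with a median of 1.54, led by Dbp at 4.62, and 3 of 5 of the Arntl phase were 2-fold lower with a median of -1.06. In the mutant rat 1 of 9 and 0 of 5 were 2-fold apart, with medians of 0.54 and -0.21. The hour of collection was not given, and the part of cell types or of the clock in the enzyme ratios was not tested.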

How the data were processed

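Trizol RNA from liver was labelled and hybridised by Affymetrix's protocol, per the labels. The authors deposited 1 linear signal intensity per probe set and array, with MAS5 named in the submitters' processing notes and no version. How arrays were scaled is not described in the sources used here. The mean signal without the lowest and highest 2% was nearly equal on all arrays. It ran from 496.0 to 496.5 in mice and from 496.3 to 496.9 in rats. The medians differed more, from 77.0 to 91.9 in mice and from 93.6 to 99.3 in rats. Precision is limited by the number of arrays, 1 a group.

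Symbols came from the platform annotation, mouse ones updated through gene identifiers to GRCm38.p6. Only probe sets with a single symbol entered. Signals under the floor were raised to it, a gene took its brightest probe set, and log2 ratios between arrays were counted at 2-fold and 1.5-fold. Where 1 array lay under the floor the fold is written "at least". List genes lacking such a probe set were not analysed here. Named were all enzymes, up to 4 genes per list with the largest ratios, some fixed regulators and the 5 nearest genes. Hsd17b7, mouse Pmvk, some cell type markers and second probe sets of list genes are named outside this rule, after their values were seen. The enzymes and lists were chosen with earlier results of these data known. The steps were tested on simulated data and run in Python 3.11.15 with pandas 2.3.3. Alternatives changed the scaling (quantile, or one median for all arrays), the floor (25th or 75th percentile) and the choice of probe sets (their median, or only those specific to a transcript).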

Additional observations from a re-analysis of the deposited data

Results flagged for a closer look

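Among the genes named in the text, some differed from WT, or from the saline-injected mutant, in opposite directions in the 2 species, each by at least the spread between probe sets. The difference between species was not tested, since each group held 1 array. In the genotype comparison the mouse log2 ratio minus the rat one was -2.31 for Sqle (-1.63 in mice, 0.68 in rats) and -1.93 for Lss (-1.06 and 0.87). These are brightest probe sets, and the second mouse probe set of Lss above the floor, at -0.39, did not exceed the spread of 0.43. The share of all genes that met this rule was not counted. Outside the 9 enzymes only named genes other than cell type markers are given, and other genes of the lists met the same rule. Among them the difference was -1.78 for Pmvk, -1.88 for Insig1, -2.76 for Fasn, -2.42 for Acly and 1.10 for Coq2. In the leptin comparison it was 0.64 for Dhcr7 (0.33 in mice, -0.31 in rats), -0.56 for Mylip, -1.56 for Scd2 and -1.03 for Thrsp. The other 5 enzymes shared by both species did not meet this rule in either comparison.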

How the results depend on the processing

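Leaving out a replicate was not possible with 1 array a group. No paired analysis was possible because each group held 1 array. Over the 6 alternatives the number of mouse enzymes 2-fold lower than WT was 4 to 6 after saline and 4 to 6 after leptin. The median of the 9 in the saline comparison moved to -0.97 with the floor at the 75th percentile, and otherwise lay between -1.63 and -1.38. Lss after leptin in rats, against WT, was no longer 2-fold higher as the median over probe sets, which left 0 enzymes. Scaling arrays to one median shifted the median of all mouse genes in the saline comparison from -0.03 to 0.22, and the enzymes with it. Without probe sets that can bind several transcripts, Fdft1 in mice went from -0.05 to -0.70 and Lss from -1.06 to -0.39. Of 301 single ratios recomputed, 289 moved by less than the spread between probe sets. No enzyme 2-fold apart in the main setting changed direction in these alternatives. Fdft1 in mice, Cyp51 in rats and, in the leptin comparison, mouse Hmgcs1 and Lss and rat Fdft1 and Cyp51 lay on both sides of 0. In the saline comparison the number of mouse genes 2-fold higher was 533, or 984 with the floor at the 25th percentile and 267 at the 75th, and 2-fold lower 443, 1341 and 198. With the arrays scaled to one median they were 962 higher and 235 lower. In rats these were 294, 694 and 112 higher and 142, 453 and 74 lower. In the leptin comparison they were 21, 408 and 5 higher and 28, 436 and 4 lower in mice, and 23, 211 and 8 higher and 27, 296 and 5 lower in rats. For mouse leptin against WT they were 476, 922 and 231 higher and 414, 1318 and 182 lower (767 and 235 with the arrays scaled to one median), and for rats 276, 631 and 113 higher and 157, 520 and 73 lower.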
